A study of Homo sapiens with 4 samples.

Results

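The extracellular matrix is the network of collagens, laminins, proteoglycans and adhesive glycoproteins that cells secrete and attach to. The genes described here are 49 protein-coding genes of this network in A549 cells, a human lung adenocarcinoma line labelled as epithelial. They were chosen by name from the 6828 genes of the deposited comparison. The names were those of collagens, laminin chains, ADAMTS proteases, thrombospondins, syndecans and glypicans, together with fibronectin (FN1), perlecan (HSPG2), agrin (AGRN), the nidogens, SPARC, tenascin C (TNC), biglycan, dystroglycan (DAG1), lysyl oxidases and the lysyl and prolyl hydroxylases of collagen. The rule is one of names alone, but only genes that passed the authors' test are in the table, and the rule was set with earlier results of these data known. The same names fit 106 protein-coding genes of RefSeq, so 57 of them, among them COL1A2, COL3A1, COL18A1, LAMA5 and LOX, were not among the listed genes and were not analysed here.

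RNA-seq was performed on poly(A) RNA 72 h after infection with pLKO.1 lentiviruses, which carried either control shRNA (shctrl, n = 2) or shRNA against the long noncoding RNA USP2-AS1 (shUSP2-AS1, n = 2). The comparison asks which transcripts change when USP2-AS1 is knocked down. Infected cells were selected with puromycin per the study's methods, which describe the libraries as biological replicates. The shRNA used for sequencing is not identified in the sources, so its own off-target effects cannot be told apart from those of the knockdown, and only 1 cell line was sequenced. The deposited table lists only genes that passed the authors' own test of this comparison. Nearly every listed gene therefore differs between the groups, and a small change or none cannot be seen for a gene that is not listed.

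Values are normalized read counts, that is, read counts divided by a size factor of the library. The groups were compared with limma on log2(value + 1), with Benjamini-Hochberg adjustment of p across all 6812 tested genes, and genes were called at an adjusted p below 0.05 and a change of at least 2-fold (log2 fold change of at least 1 in size). The libraries held 10772788 to 14120472 reads on listed genes, and replicates differed by more than counting noise. USP2-AS1 had 24 and 22 reads in the shctrl libraries against 2 and 7 in the shUSP2-AS1 libraries (log2 fold change -2.39, SE 0.56, limma adjusted p = 0.000597). Of the epithelial markers, KRT7, KRT8, KRT18 and KRT19 were listed, with a summed normalized read count of 179244 and 168132 in shctrl and 106336 and 112823 in shUSP2-AS1. KRT18 was called lower (log2 fold change -1.05), KRT19 lay higher (0.75), and EPCAM and CDH1 were not listed.

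Collagens are triple helices of 3 chains. Fibrillar collagens form the fibres of connective tissue, type IV collagen forms the sheet of the basement membrane, type VI forms beaded filaments, and type VII forms the fibrils that anchor the basement membrane to the tissue under it. Laminins are trimers of an alpha, a beta and a gamma chain that assemble on epithelial cells, and nidogens, perlecan and agrin link the laminin and collagen IV layers. In the lung this sheet lies under the alveolar and airway epithelium, and epithelial cells make part of it.

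All the matrix genes passed the filter on low values, a mean of at least 10 over all libraries. COL5A3 and COL22A1 had shctrl means of 9.23 and 4.26 and passed only through shUSP2-AS1, where their means were 169.9 and 26.2. Their entry and their calls thus both rest on the group where they are high. Of the 49 genes, 24 were upregulated in shUSP2-AS1 cells and 0 were downregulated, and 25 were not called. Over all genes tested, 16.1% were called higher and 13.5% were called lower. The log2 fold change was positive for 45 of the matrix genes and negative for 4, whereas it was positive for 50.6% of all listed genes. Its median was 0.99 over the matrix genes (quartiles 0.63 and 1.36) and 0.19 over all listed genes (quartiles -0.67 and 0.72). Few listed genes lie near 0, because the table was selected for change, so the median of all genes is loosely fixed. All 49 matrix genes had groups of libraries that did not overlap and an adjusted p below 0.05, which says little here, since each was true of 100% of the genes tested (6811 of 6812). Whether a gene was called therefore rested on its fold change.

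The summed share of reads followed the same direction. Reads of the 49 genes made up 1.11% and 1.16% of the listed reads in shctrl and 2.01% and 1.93% in shUSP2-AS1. Collagens contributed 20.6% and 20.9% of the summed matrix value in shctrl, and 32.2% and 33.2% in shUSP2-AS1. Of the 19 collagens, 16 were called higher and all had a positive log2 fold change (median 1.34). Of the other 30 matrix genes, 8 were called higher, with a median log2 fold change of 0.66.

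**Figure D1:**
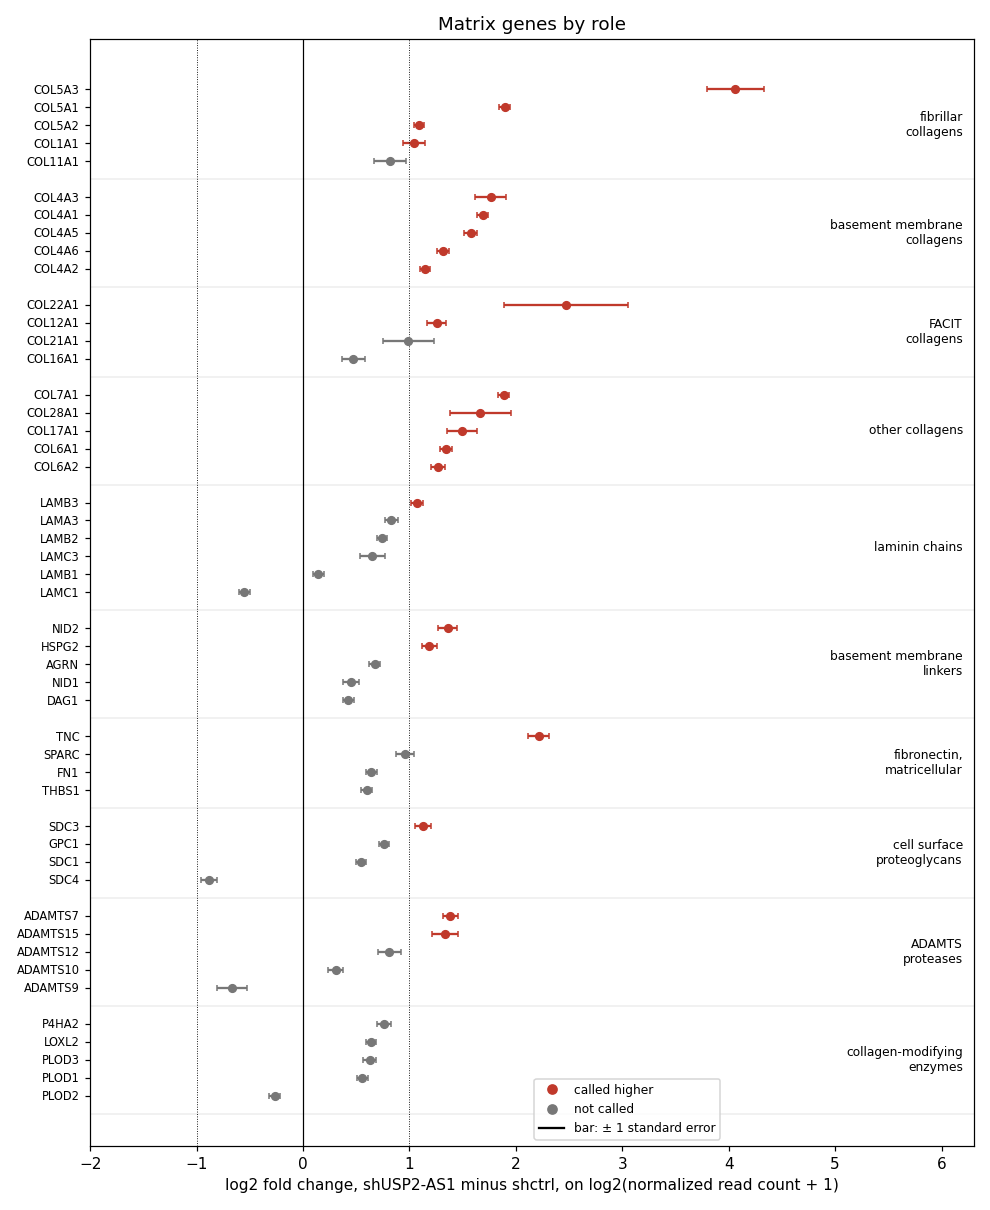
Log2 fold change (shUSP2-AS1 minus shctrl) of 48 of the matrix genes on the horizontal axis, grouped by role, with bars of 1 standard error. Dotted lines mark a 2-fold change in either direction, and red points are genes called higher. All 19 collagens lie right of 0, and the 4 genes left of it are LAMC1, SDC4, ADAMTS9 and PLOD2.

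**Figure D2:**
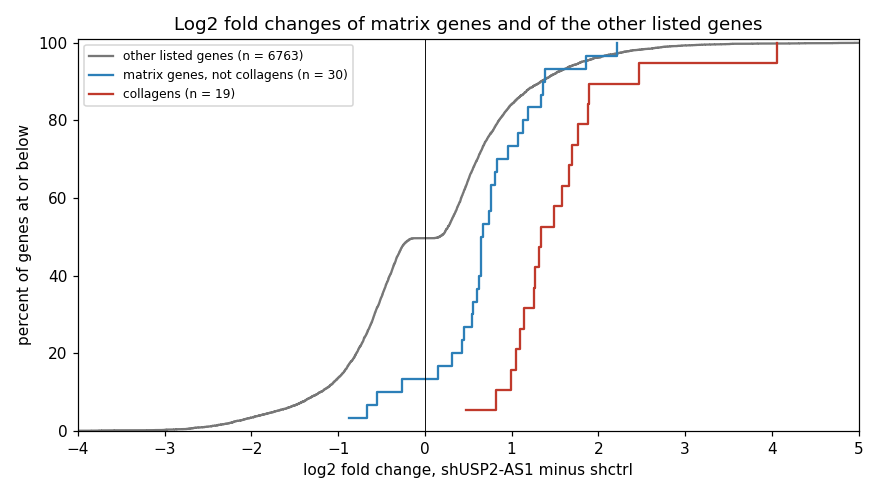
Share of genes (percent) at or below each log2 fold change, for the 19 collagens, the other 30 matrix genes and the remaining listed genes. The grey curve is flat around 0 because unchanged genes are not listed, and both matrix curves lie to its right over most of their range.

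Matrix transcripts are long. The deposited gene length had a median of 7663 bases for the matrix genes and 5469 bases for the other protein-coding genes tested. Among 1473 other protein-coding genes within the middle range of matrix gene lengths (6393 to 9605 bases), 13.1% were called higher and 11.5% were called lower.

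Type IV collagen genes lie head to head in pairs, transcribed away from each other from 1 shared stretch of DNA. These stretches are shown for COL4A1 with COL4A2 and for COL4A6 with COL4A5, because both genes of each pair were called higher. COL4A1 (chr13:110148963-110307157, minus strand) and COL4A2 (chr13:110305812-110513209, plus strand) have 126 bases between their starts in the RefSeq promoters of GRCh38.p14, although their deposited intervals overlap by 1346 bases. COL4A6 (chrX:108155607-108439497, minus strand) and COL4A5 (chrX:108439838-108697545, plus strand) have 379 bases between their RefSeq starts, against 340 between the deposited intervals, and 121 of these bases lie upstream of both genes in the RefSeq windows. The plus strand reads as follows, 5′ to 3′, with capitals marking matches on either strand to the GC box (GGGCGG, bound by SP1), the CCAAT box (CCAAT, bound by NF-Y) and the CTC box (CCCTCCCC).
COL4A1/COL4A2, chr13:110307158-110307283: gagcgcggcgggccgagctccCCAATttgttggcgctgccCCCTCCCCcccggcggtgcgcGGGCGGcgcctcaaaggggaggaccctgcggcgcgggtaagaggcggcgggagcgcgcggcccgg
COL4A6/COL4A5, chrX:108439588-108439708: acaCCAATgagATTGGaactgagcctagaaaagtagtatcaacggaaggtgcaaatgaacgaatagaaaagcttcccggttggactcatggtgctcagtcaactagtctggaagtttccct
The first stretch is 80.2% G and C and holds 1 match to each of the 3 motifs. The second is 44.6% G and C and holds 2 CCAAT matches, 1 on each strand, and neither of the other motifs. RefSeq promoters (250 bases before to 50 after the start) were matched for 39 of the 49 genes. The GC box was found in 87.2% of these 39 promoters, against 79.0% of the listed protein-coding genes and 48.3% of all 27305 genes with a promoter. For CCAAT the shares were 43.6%, 43.9% and 39.7%, and for the CTC box 30.8%, 23.3% and 15.6%. The AP-1 site TGANTCA was found in 7.69%, 7.63% and 9.37%, the TEAD site GGAATG in 12.8%, 15.6% and 16.7%, and the TATA box TATAAA in 10.3%, 8.37% and 13.99%. A match is only a run of letters.

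All 5 type IV collagen genes listed were called higher. COL4A1 and COL4A2 encode the chains found in nearly every basement membrane. COL4A1 had normalized read counts of 2101 and 2165 in shctrl and 6721 and 7051 in shUSP2-AS1 (log2 fold change 1.69, SE 0.051, limma adjusted p = 1.16e-14). COL4A2 had 5348 and 5529 against 11844 and 12257 (1.15, SE 0.048, adjusted p = 5.83e-13 from limma), the highest level per kilobase of this group. Replicates lay close together in both genes, and the groups were far apart. Per kilobase, the COL4A1 level was 0.516 and 0.515 of the COL4A2 level in shctrl and 0.746 and 0.756 of it in shUSP2-AS1. COL4A3, COL4A5 and COL4A6 encode chains found in the basement membranes of fewer tissues. COL4A5 had 1189 and 1204 in shctrl and 3752 and 3391 in shUSP2-AS1 (log2 fold change 1.58, SE 0.060, limma adjusted p = 1.81e-13). COL4A6 had 1275 and 1307 against 3269 and 3140.5 (1.31, SE 0.056, adjusted p = 6.94e-13 from limma). The COL4A5 level per kilobase was 0.729 and 0.721 of that of COL4A6 in shctrl and 0.897 and 0.844 in shUSP2-AS1. COL4A3, with the lowest level of the group, had 93.7 and 129.7 against 379.6 and 374 (1.76, SE 0.15, limma adjusted p = 4.99e-09). Its 2 shctrl libraries were further apart than its shUSP2-AS1 libraries, and the groups were still well separated.

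Fibrillar collagens were led by the 3 chains of type V collagen, which sits inside collagen fibrils and sets their width. COL5A3 (chr19:9959561-10010504, minus strand) showed the largest fold change of the 49 genes, from 9.66 and 8.79 in shctrl to 172 and 167 in shUSP2-AS1 (log2 fold change 4.06, SE 0.26, limma adjusted p = 1.84e-10). These values stand for 10 and 8 reads against 164 and 190. COL5A1 rose from 3094 and 3465 to 12221 and 12111 (1.89, SE 0.055, adjusted p = 8.18e-15 from limma). COL5A2 had 5104 and 5144 in shctrl and 11143 and 10706 in shUSP2-AS1 (1.09, SE 0.048, limma adjusted p = 1.02e-12), and was the most abundant fibrillar chain per kilobase. The 3 chains thus differed in the size of their change. The COL5A1 level per kilobase was 0.398 and 0.442 of that of COL5A2 in shctrl and 0.719 and 0.742 in shUSP2-AS1. COL5A3 remained minor, with 0.00514 and 0.00417 of the COL5A1 level in shctrl and 0.0232 and 0.0227 in shUSP2-AS1. COL1A1, a chain of the main collagen of bone and skin, had 261 and 293 against 530.0 and 618 (1.05, SE 0.10, adjusted p = 5.18e-08 from limma). Its call and that of COL5A2 depended on the scaling: with RLE scaling the log2 fold changes were 0.93 and 0.97, below the limit of 1. COL1A1 was also under the limit without shctrl replicate 1 (0.96) or without shUSP2-AS1 replicate 2 (0.94). COL11A1, a cartilage fibril chain, was not called (0.81).

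**Figure D3:**
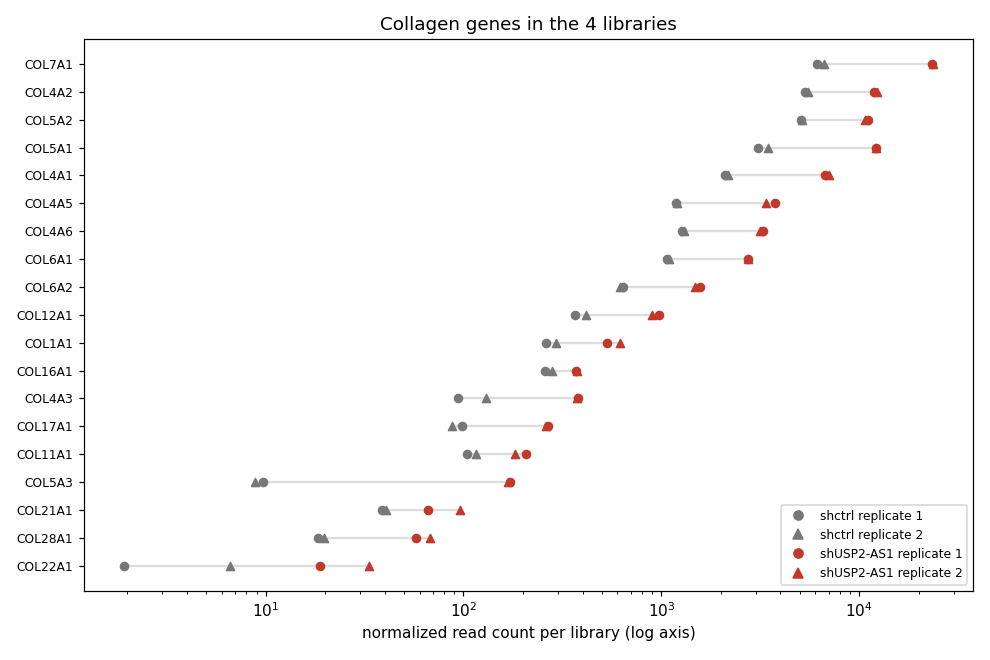
Normalized read count (log axis) of the 19 listed collagens in each of the 4 libraries, with shctrl in grey and shUSP2-AS1 in red. In every gene both red points lie right of both grey points, and the widest gap is that of COL5A3.

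The anchoring, beaded and transmembrane collagens were called higher in all 5 cases. COL7A1 (chr3:48564073-48595267, minus strand), which encodes the anchoring fibril collagen, had the highest level per kilobase of this group. Among all collagens it came first per kilobase in both shUSP2-AS1 libraries, whereas COL5A2 came first in both shctrl libraries. Its normalized read counts were 6105 and 6629 in shctrl and 23354 and 23638 in shUSP2-AS1 (log2 fold change 1.88, SE 0.051, limma adjusted p = 4.39e-15). In the second shUSP2-AS1 library only AGRN had a higher normalized read count among the 49 genes. COL17A1, a transmembrane collagen of hemidesmosomes, had 98.6 and 87.9 against 267 and 261 (1.49, SE 0.14, adjusted p = 2.84e-08 from limma). COL6A1 and COL6A2, neighbours on chromosome 21 that encode partner chains of type VI collagen, moved by similar amounts. COL6A1 had 1072 and 1095 in shctrl and 2755 and 2738 in shUSP2-AS1 (1.34, SE 0.057, limma adjusted p = 6.62e-13), and COL6A2 had 641 and 619.8 against 1561 and 1476 (1.27, SE 0.068, adjusted p = 1.55e-11). Their ratio per kilobase was 1.68 and 1.77 in shctrl and 1.77 and 1.86 in shUSP2-AS1, so the ratios of the groups overlapped. COL28A1 was measured on few reads, with 18.4 and 19.8 against 57.8 and 67.8 (1.67, SE 0.29, limma adjusted p = 3.31e-05).

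The FACIT collagens, which decorate the surface of fibrils, were less uniform, with 2 of 4 called higher. COL12A1 had 365 and 418 in shctrl and 979 and 893 in shUSP2-AS1 (log2 fold change 1.26, SE 0.088, limma adjusted p = 5.25e-10). COL22A1 had 1.93 and 6.59 against 18.9 and 33.5 (2.47, SE 0.58, adjusted p = 0.000594 from limma). The shctrl values of COL22A1 rest on 2 and 6 reads, and its replicates differed most of all 49 genes. Its log2 fold change was 3.16 without shctrl replicate 2 and 1.79 without shctrl replicate 1. Against a threshold of 2-fold in the test itself, COL22A1 no longer passed (adjusted p = 0.0651), nor did COL28A1 (adjusted p = 0.0953). COL21A1 (0.99) and COL16A1 (0.47) were not called, although COL21A1 lay so near the limit that edgeR on the recovered reads called it (1.03).

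Laminin chains did not move together. LAMA3 and LAMB3 are chains of the laminin that anchors epithelia through hemidesmosomes, and LAMB1 and LAMC1 are the beta and gamma chains of most other basement membrane laminins. LAMB3 had 1298 and 1231 in shctrl and 2735 and 2585 in shUSP2-AS1 (log2 fold change 1.07, SE 0.059, limma adjusted p = 2.05e-11), and with RLE scaling its change was under the limit (0.95). LAMA3 was not called, with a log2 fold change of 0.83. LAMC1 lay in the opposite direction, with 7571 and 8025 in shctrl and 5446 and 5179 in shUSP2-AS1 (-0.55, SE 0.051, limma adjusted p = 1.75e-08), short of the 2-fold limit. LAMB1, the most abundant laminin chain per kilobase, changed little, with 8189 and 8452 against 9215 and 9186 (0.15, SE 0.047, adjusted p = 0.00699 from limma). With RLE scaling its log2 fold change was only 0.03. LAMB2 (0.74) and LAMC3 (0.65) were not called.

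LAMB3 reached 0.275 and 0.253 of the LAMB1 level per kilobase in shctrl and 0.516 and 0.489 in shUSP2-AS1, and stayed below it in every library. This and the other ratios are given as descriptions, with no test.

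**Figure D4:**
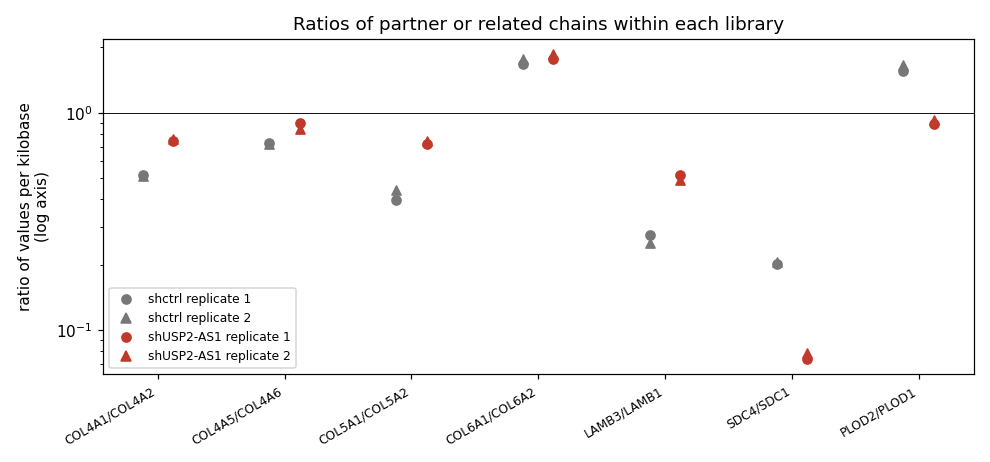
Ratio of normalized read counts per kilobase (log axis) for pairs of partner or related genes in each library, with shctrl in grey and shUSP2-AS1 in red. LAMB3/LAMB1 and COL5A1/COL5A2 rise, SDC4/SDC1 and PLOD2/PLOD1 fall, and COL6A1/COL6A2 is nearly level.

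All 5 basement membrane linkers had positive log2 fold changes, and 2 were called higher. NID2, nidogen 2, had 341 and 367 in shctrl and 961 and 861 in shUSP2-AS1 (log2 fold change 1.36, SE 0.087, limma adjusted p = 1.52e-10), whereas NID1 was not called (0.45). In GENCODE release 44, 30.7% of the exon bases of NID2 lie also in exons of RTRAF on the opposite strand, and the library protocol in the labels does not mark strand. RTRAF had a log2 fold change of -0.30, opposite in sign to NID2. HSPG2, the large heparan sulfate proteoglycan perlecan, had 9622 and 10954 against 25595 and 21336 (1.19, SE 0.072, adjusted p = 8.16e-11 from limma), and 11.7% of its exon bases lie in exons of LDLRAD2, which was not listed. Its 2 shUSP2-AS1 libraries were unequal, and leaving out 1 library at a time gave 1.06 to 1.32. AGRN, the most abundant linker per kilobase, had 14651 and 15378 in shctrl and 24129 and 23758 in shUSP2-AS1 (0.67, SE 0.049, limma adjusted p = 8.19e-10) and was not called. DAG1, the receptor for laminin and agrin, was not called (0.43).

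Among fibronectin and the matricellular proteins, TNC was called higher and the other 3 were not. TNC, tenascin C, is low in most adult tissue and induced in wounds and tumours. It had 199 and 180.2 in shctrl and 901 and 865 in shUSP2-AS1 (log2 fold change 2.21, SE 0.096, limma adjusted p = 8.47e-13). FN1, the gene with the largest summed value of the 49 in both shctrl libraries, had 15505 and 16122 against 25939 and 23468 (0.64, SE 0.054, adjusted p = 5.96e-09 from limma). Its share of the matrix value was 11.8% in each shctrl library and 10.5% in the first shUSP2-AS1 library. In the second, FN1 came after AGRN, which had the largest share (9.92%), and COL7A1. SPARC, a collagen-binding protein, had a log2 fold change of 0.96 and passed the limit with upper quartile scaling (1.02) and without shUSP2-AS1 replicate 1 (1.01). THBS1, an activator of latent TGF-beta, was not called (0.60).

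Cell surface proteoglycans, which carry heparan sulfate chains that hold matrix proteins and growth factors, did not move as a group. SDC3 had 747 and 760.5 in shctrl and 1789 and 1527 in shUSP2-AS1 (log2 fold change 1.13, SE 0.075, limma adjusted p = 2.36e-10). SDC4, a syndecan of focal adhesions, lay lower, with 1054 and 1017 against 535 and 589.9 (-0.88, SE 0.077, adjusted p = 8.69e-09 from limma), the most negative value of the 49 genes. It did not reach the 2-fold limit. SDC1, the main syndecan of epithelia and the most abundant matrix gene per kilobase, had 7212 and 6811 in shctrl and 10043 and 10381 in shUSP2-AS1 (0.54, SE 0.049, limma adjusted p = 1.56e-08). Per kilobase, SDC4 stood at 0.202 and 0.206 of SDC1 in shctrl and at 0.0737 and 0.0786 in shUSP2-AS1. GPC1, the only glypican listed, was not called (0.76).

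The ADAMTS genes encode secreted metalloproteases that cut matrix proteins, and their 5 listed members went both ways. ADAMTS7, which cuts the cartilage matrix protein COMP, had 551 and 529.7 in shctrl and 1382 and 1440.4 in shUSP2-AS1 (log2 fold change 1.38, SE 0.070, limma adjusted p = 7.24e-12). ADAMTS15, which cuts aggrecan and versican, had 159 and 197 against 445 and 452 (1.33, SE 0.12, adjusted p = 1.25e-08 from limma). ADAMTS10, which acts on fibrillin microfibrils and had the highest level per kilobase of the group, had 839.7 and 890.2 in shctrl and 1019 and 1123 in shUSP2-AS1 (0.31, SE 0.072, limma adjusted p = 0.00061). ADAMTS12 (0.81) was not called. ADAMTS9, also a versican-cutting protease, was not called and lay lower in shUSP2-AS1, with 191 and 214 against 127 and 128 (-0.66).

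None of the 5 listed enzymes that modify or cross-link collagen was called. LOXL2, a lysyl oxidase that forms cross-links, was the most abundant of them per kilobase, with 5287 and 5189 in shctrl and 8076 and 8272 in shUSP2-AS1 (log2 fold change 0.64, SE 0.048, limma adjusted p = 1.1e-09). P4HA2, a prolyl hydroxylase subunit that stabilises the triple helix, had 0.76, and the lysyl hydroxylases PLOD3 and PLOD1 had 0.63 and 0.56. PLOD2, the lysyl hydroxylase of the ends of the chain, had -0.26. The PLOD2 level per kilobase was 1.55 and 1.66 times that of PLOD1 in shctrl and 0.889 and 0.928 of it in shUSP2-AS1.

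**Figure D5:**
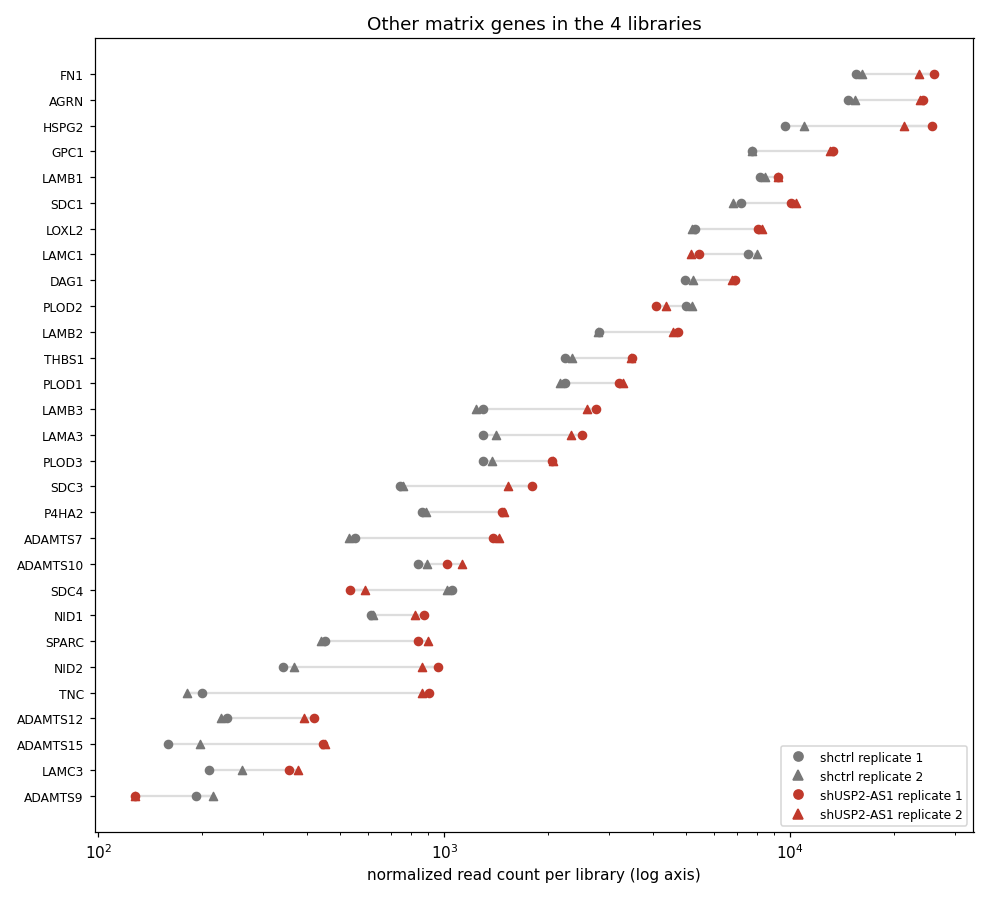
Normalized read count (log axis) of 29 listed matrix genes other than collagens in each of the 4 libraries, with shctrl in grey and shUSP2-AS1 in red. The red points lie right of the grey in 25 genes and left of them in LAMC1, PLOD2, SDC4 and ADAMTS9.

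Further genes of the same pathways were taken from lists of other matrix proteins, collagen processing, heparan sulfate synthesis, TGF-beta signalling and matrix receptors. Over all genes tested, 16.1% were called higher and 13.5% lower. Of 23 other matrix proteins tested, 12 (52.2%) were called higher and 0 lower (median log2 fold change 1.08). FBN1, the fibrillin of elastic microfibrils, had 1244 and 1348 in shctrl and 6227 and 5578 in shUSP2-AS1 (2.19, SE 0.062). VCAN, the large proteoglycan versican, had 1823 and 2152 against 7175 and 6399 (1.77, SE 0.070). LUM and SPOCK3, both counted among the 12, had larger fold changes on few reads. They passed the filter on low values only through their shUSP2-AS1 libraries. LUM had 1.93 and 1.10 against 25.2 and 15.8 (3.08, SE 0.66), and SPOCK3 had 6.76 and 4.40 against 43.1 and 39.6 (2.71, SE 0.43). Of 15 further genes of collagen folding and maturation, 3 (20.0%, near the share of all genes) were called higher and 0 lower (median 0.66). These were the lysyl oxidase LOXL4 (2.05), the prolyl hydroxylase subunit P4HA3 (1.76) and BMP1 (1.31), the protease that removes the carboxyl end of procollagens. Of 13 genes of heparan sulfate synthesis, 1 (7.69%, below the share of all genes) was called higher (HS3ST3B1, 1.74) and 0 lower. HS3ST3B1 had low values with unequal replicates, 8.70 and 16.5 in shctrl and 53.6 and 33.5 in shUSP2-AS1 (SE 0.39). Of 5 receptors for matrix other than integrins, 0 were called higher and 1 (20.0%) lower. This was HMMR, a hyaluronan receptor with a role in mitotic spindles (-2.47).

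TGF-beta is the best known inducer of collagen and fibronectin transcription. Of 15 genes of its ligands, receptors and feedback tested, 6 (40.0%) were called higher and 0 lower, against 16.1% and 13.5% of all genes tested. The log2 fold change was positive for 10 of them and negative for 5 (median 0.90, quartiles -0.30 and 1.46). The type I receptor ACVRL1 had 19.3 and 16.5 in shctrl and 83.1 and 92.4 in shUSP2-AS1 (2.23, SE 0.27). TGFBR2, the type II receptor, had 3315 and 3407 against 9766 and 9400.3 (1.51, SE 0.049), and LTBP1, which holds latent TGF-beta in the matrix and is also among the other matrix proteins, had 1.51. The ligands differed: TGFB2 was called higher (1.21) and TGFB1 was not called and had a negative log2 fold change (-0.58). These transcripts moved in the same libraries as the matrix genes, and their part in the matrix changes was not tested.

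Fibroblast markers were looked at because fibroblasts are the main makers of fibrillar collagen. Of 6 markers, THY1 and LUM were listed, with a summed value of 178 and 189 in shctrl and 487 and 547 in shUSP2-AS1, and PDGFRA, PDGFRB, DCN and FAP were not listed. THY1 lies at chr11:119415476-119424985, inside the listed interval of USP2-AS1 (chr11:119364359-119526664), and had a log2 fold change of 1.44. None of 4 endothelial and 3 leukocyte markers was listed, and of 6 alveolar type II markers only ABCA3 was, with 1273 and 1357 against 4610.1 and 4311. All libraries were made from the A549 line, and a part of other cell types in the matrix values was not tested.

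The miR-29 family is known for pairing with the 3′UTRs of many collagen mRNAs, so the listed genes were searched for its seed match. Its members share the seed, bases 2 to 8, shown in capitals in the mature sequences of RefSeq (GRCh38.p14).
hsa-miR-29a-3p: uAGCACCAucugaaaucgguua
hsa-miR-29b-3p: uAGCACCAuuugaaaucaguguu
hsa-miR-29c-3p: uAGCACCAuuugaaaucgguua
The match TGGTGCT was present in the 3′UTR of the canonical GENCODE transcript of 27 of the 49 genes (55.1%), against 17.3% of 6296 other listed protein-coding genes. Among collagens 15 of 19 (78.9%) had a match and among the other matrix genes 12 of 30 (40.0%). The 3′UTRs were not longer, with a median of 1277 bases for the matrix genes and 1420.0 bases for the other genes, and there were 0.544 and 0.1003 matches per kilobase. Of the genes called higher, 16 of 24 had a match, and of those not called, 11 of 25. Over all 49 matrix genes, the median log2 fold change was 1.15 with a match and 0.75 without. Within the collagens it was 1.31 for the 15 genes with a match and 1.42 for the 4 without, and within the other matrix genes 0.73 and 0.66. For the other listed protein-coding genes it was 0.35 with a match and -0.24 without. These differences were not tested. Among the other listed protein-coding genes, 18.8% of those called higher and 14.04% of those called lower had a match. Mature miRNAs are not measured in these libraries.

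COL5A1 had the most matches, 4, and COL5A3 and ADAMTS12 had 3, while COL7A1, among the genes with the largest changes, had 2. ADAMTS12 was not called (0.81). Of the 9 matrix genes with 2 or more matches, 5 were called higher and 4 were not called. The first and last sites of COL5A1, COL5A3 and COL7A1 are shown on the transcript strand with the 15 bases before them. Capitals mark the match (GRCh38).
COL5A1, chr9:134843327-134843348, plus strand: taactcaatgaaaatTGGTGCT
COL5A1, chr9:134844082-134844103, plus strand: gagcctgcggggctcTGGTGCT
COL5A3, chr19:9960353-9960374, minus strand: agaatggggtgcattTGGTGCT
COL5A3, chr19:9959742-9959763, minus strand: gaatcaggatcctaaTGGTGCT
COL7A1, chr3:48564323-48564344, minus strand: cactgtccctcccctTGGTGCT
COL7A1, chr3:48564110-48564131, minus strand: aagcctgtgatgacaTGGTGCT
TNC, whose change was the third of the 49 in size, had no match, nor had COL17A1, COL6A1, NID2 or FN1. LAMC1, which lay lower in shUSP2-AS1, had 1. Genes called higher were thus found with and without a match.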

How the data were processed

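RNA-seq of A549 cells was compared between 2 shctrl and 2 shUSP2-AS1 libraries. Per the submitters' processing notes, the authors used hg38, HISAT2 (2.0.5), featureCounts (1.5.0-p3) and DESeq2 (1.20.0). The deposited table gives, for each gene and library, a normalized signal (reads over the size factor of that library) with the gene length and their own fold changes and p-values, which were not used. Columns scr and sh216 were taken as shctrl and shUSP2-AS1 from the heading of the table, and 0 columns were left over. All values were whole multiples (tolerance 0.1 reads) of 1 read, worth 0.966 and 1.10 in shctrl and 1.05 and 0.88 in shUSP2-AS1.

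Genes averaging 10 or more were fitted on log2(value + 1) with limma (3.58.1, R 4.3.3; lmFit, eBayes with trend), two-sided. On this scale the change of thinly covered genes is understated. The edgeR (4.0.16) and DESeq2 (1.42.0) tests on recovered reads were alternatives. The scripts were tested on simulated data. Libraries with the same replicate number showed no shared deviation (correlation of deviations -0.0397), which does not tell whether they were prepared in pairs. Of the matrix genes, 46 share a start or end with GENCODE release 44.

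The genes, lists, motifs and markers were chosen with earlier results of these data known. Values in each library are given for called genes and for the highest gene per kilobase of each role, and other genes by fold change. Values of LAMC1, SDC4 and ADAMTS9 were added after they were seen. From each pathway list, up to 4 called genes per direction with the largest change are named. The values of some genes that these rules would name are not reported here, though the counts include them.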

Additional observations from a re-analysis of the deposited data

How the results depend on the processing

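The direction of all 49 matrix genes was kept under every alternative tried (4 genes remained negative). Without a fold change threshold, 45 matrix genes were called higher and 4 lower, and over all genes 3449 were called higher and 3362 lower. When the test itself was set against a 2-fold change, 541 of all genes were called higher and 523 lower. With at least 10 reads in every library, which leaves out COL5A3 and COL22A1, 22 of 47 matrix genes were called higher and 0 lower. Over all genes, 930 of 6583 were then called higher and 861 lower. The median log2 fold change of the matrix genes was 1.01 with a pseudocount of 0.1, 0.96 with at least 10 reads in every library (47 genes), 0.87 with RLE scaling, 1.05 with upper quartile scaling, 1.03 with edgeR, 0.92 with the size factors of DESeq2 and 1.04 with those of the authors. Leaving out 1 library at a time gave 0.91 to 1.03. With the replicate number as a replicate block, 24 matrix genes were called higher and no call changed, although the numbers are not shown to pair the libraries. RLE scaling moved the median of all genes from 0.19 to 0.07 and the share of calls that were higher from 54.4% to 45.0%.

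COL5A2, LAMB3 and COL1A1 lost their calls with RLE scaling and with the size factors of DESeq2, and the other 21 called genes kept theirs in the settings where they were tested, apart from the test against a fold change of 2, which COL22A1, COL28A1, HSPG2, SDC3, COL5A2, LAMB3 and COL1A1 did not pass. COL21A1 and SPARC passed in some settings. With 2 libraries a group, the standard errors borrow from all genes, and genes with under 20 reads a library, such as COL5A3 and COL22A1 in shctrl, are loosely measured.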
